A study of Homo sapiens with 4 samples.

Results

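Amino acid transporters are membrane proteins of the solute carrier (SLC) families that move amino acids across the plasma membrane and the membranes of lysosomes and mitochondria. The set described here holds 33 genes, chosen by symbol from the families SLC1, SLC3, SLC6, SLC7, SLC16, SLC36, SLC38 and SLC43, with the mitochondrial carrier SLC25A22 and the lysosomal cystine exporter CTNS. All 33 had a row among the 78932 Ensembl genes of the count table, 1 row for each symbol. The RNA came from RPMI 8226, an established multiple myeloma line of human origin, that is, a line of malignant plasma cells (the sample labels spell it RPMI82266). The cells had been transfected with an antisense oligonucleotide (ASO) holding locked nucleic acid (LNA), a modified oligonucleotide that pairs with a chosen RNA. The treated group received 5 nM of an ASO against the RNA-binding protein gene CELF2, and the other group a control LNA ASO of no stated dose, each with 2 libraries and 72 hours of treatment. Whether the number in a label marks a replicate or an oligonucleotide is not stated. No label says that the libraries of a group came from separate cultures, so the p-values here reflect no more than the spread within these pairs of libraries, and that spread may be technical.

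Most of these carriers work by exchange or by coupling to sodium or protons, and several are assembled from a glycosylated heavy chain and a light chain that does the transport. The heavy chain SLC3A2 (4F2hc, CD98) brings light chains such as SLC7A5 (LAT1) and SLC7A11 (xCT) to the cell surface. Several transporter genes are known targets of ATF4, a transcription factor of the amino acid response, in which shortage of amino acids or other stress slows translation and raises uptake and synthesis genes. Plasma cells secrete large amounts of immunoglobulin and have a high demand for amino acids.

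Total counts per library lay between 23599190 and 29161298. CELF2 was lower with its ASO. It had 128 and 127.9 CPM (read counts scaled to library sizes adjusted by TMM) in the control libraries and 56.6 and 48.8 CPM in the CELF2 ASO libraries, a 2.43-fold fall (log2 fold change -1.28, standard error 0.09, edgeR adjusted p = 3.74e-05). Of 12 plasma cell markers, all 12 were tested, 6 rose (50.0%, beside 28.0% of protein-coding genes) and 4 fell (33.3%, beside 35.4%). The falls numbered 2 without control_LNA_ASO replicate 2, with library totals alone and with no filter, and the rises numbered 4 without either CELF2 ASO library. The markers had a summed level of 5070 and 5710 CPM in the control and 14543 and 14130 CPM in the CELF2 ASO libraries, a sum to which IGLC2 added 8505 and 8701 CPM in the latter. The summed level was 1.86 to 2.78 CPM for 9 T and NK cell markers and 3.10 to 5.45 CPM for 9 myeloid markers, of which LYZ, FCGR3A and S100A8 were at 0 counts in all 4 libraries. Of the myeloid markers CD14 and S100A9 fell, and of the stromal and epithelial ones COL1A1 and EPCAM fell. S100A9 had 40 and 36 counts in the control and 2 and 0 in the CELF2 ASO libraries. It passed the filter on low counts only through the control libraries. For 10 stromal and epithelial markers, the summed level was 122 and 124 CPM in the control and 88.2 and 88.3 CPM in the CELF2 ASO libraries, mostly from EPCAM and KRT18, and KRT19 was at 0. Their part in the transporter results was not tested. Over the tested transporters, the median absolute log2 difference was 0.13 between the CELF2 ASO libraries and 0.05 between the control libraries.

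The transporter genes changed in both directions. Of the 33 genes, 28 passed the filter on low counts and were tested, and 12 rose, 10 fell and 6 did not pass the test (edgeR quasi-likelihood test, Benjamini-Hochberg adjusted over all 19511 tested genes, threshold 0.05). Over all tested genes 55.6% were called, 27.6% higher and 28.0% lower, and over 12754 protein-coding genes these shares were 28.0% and 35.4%. The 12 rises among 28 tested members came to 42.9% and the 10 falls to 35.7%, so the share of falls was about that of protein-coding genes. Changes of at least 2-fold were called for 5 rises and 7 falls, 12 of 28 tested members, where the background over all genes was 25.7%, made of 14.5% higher and 11.2% lower. SLC3A1 and SLC7A8 reached the filter's minimum of 0.396 CPM in both libraries only of the group where each was higher, so a difference was needed for them to be tested. Without them 26 members were left, with 11 rises and 9 falls, of which 4 and 6 were at least 2-fold. The levels of the groups did not overlap for 25 of 28 members, against 79.6% of all tested genes. The median log2 fold change of the 28 members was 0.27, beside 0.04 over all genes, and their median absolute log2 fold change was 0.85, beside 0.59. The members' median was 0.12 with a filter at 1 CPM and 0.10 without CELF2_LNA_ASO replicate 2. Another 186 tested genes named SLC or SLCO, which include further amino acid carriers, had 57 rises (30.6%) and 72 falls (38.7%). Of these 186 genes, 59 (31.7%) were called with at least 2-fold change, 28 higher and 31 lower. Their median log2 fold change was -0.10 and their median absolute value 0.73. In bulk RNA of this kind, fewer cells expressing a gene and less RNA per cell cannot be told apart.

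**Figure D1:**
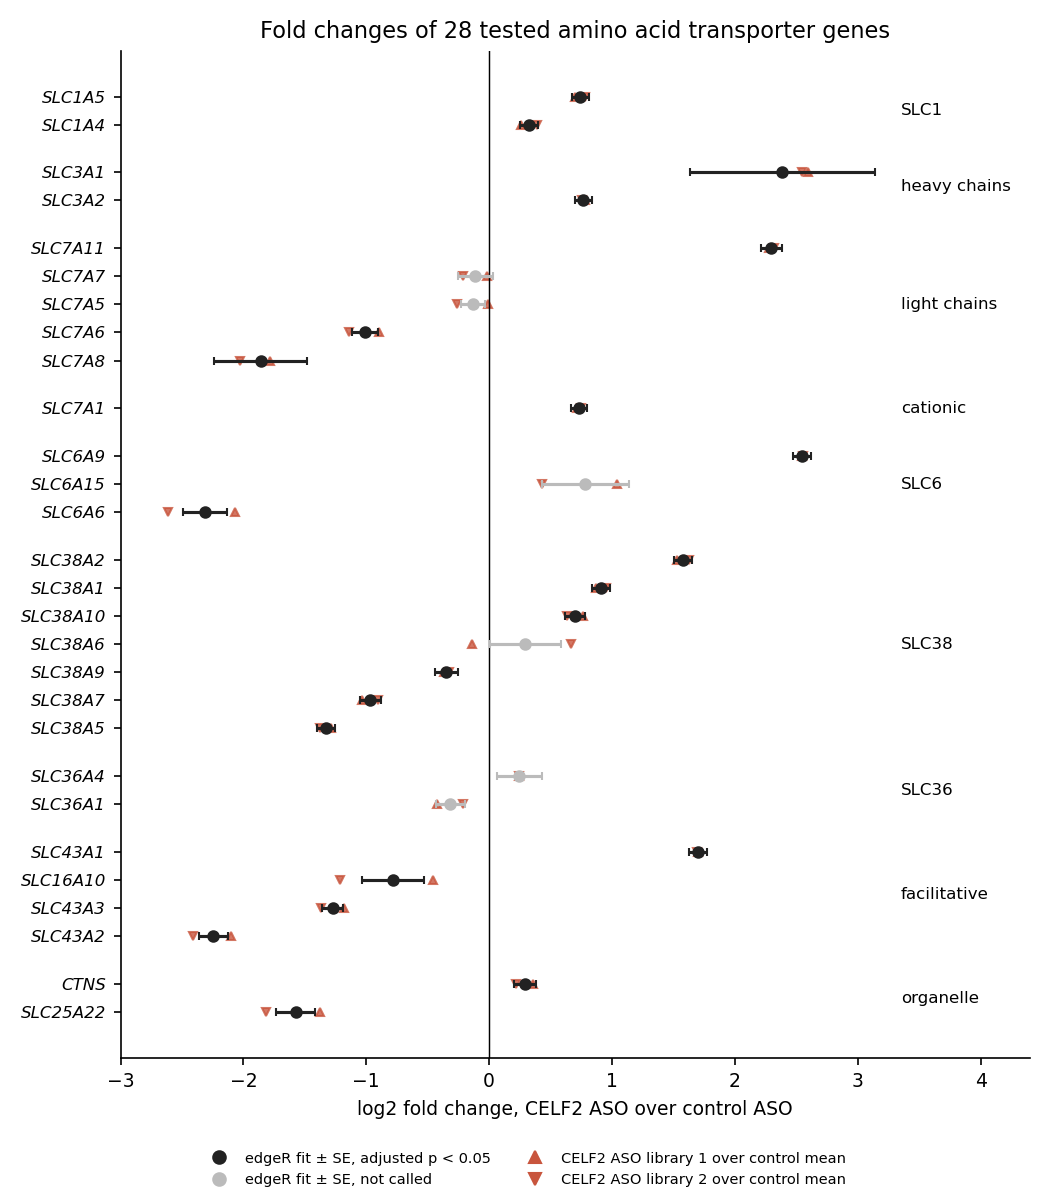
Log2 fold change of the 28 tested transporter genes (x axis), grouped by role, as the edgeR estimate with its standard error (circles, dark where the adjusted p is under 0.05) and as each CELF2 ASO library over the mean of the control libraries (triangles). SLC6A9 at 2.55 and SLC6A6 at -2.31 mark the ends, and the triangles lie farthest apart for SLC38A6, SLC16A10, SLC6A15 and SLC6A6.

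**Figure D2:**
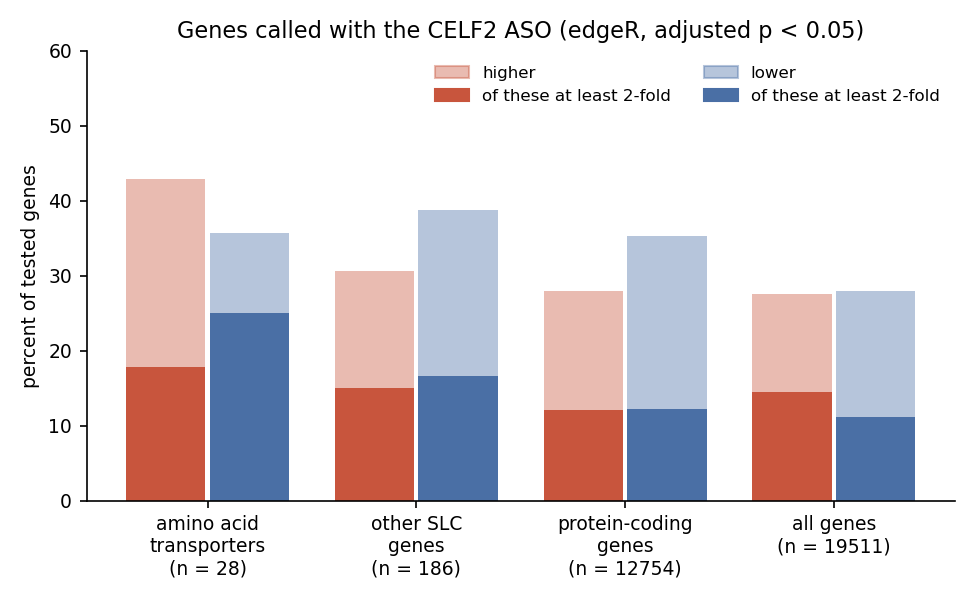
Percent of tested genes called higher (red) or lower (blue) with the CELF2 ASO, with the darker part for changes of at least 2-fold, for 28 amino acid transporters, 186 other SLC genes, 12754 protein-coding genes and all 19511 tested genes. The transporters have 42.9% higher and 35.7% lower, and all tested genes have 27.6% and 28.0%.

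Promoter sequence is shown for the transporters with the largest called changes among the 25 members found in the RefSeq promoter table (GRCh38.p14). These are 4 that rose and 2 that fell, each with bases before an annotated start site. Each window was the 250 bases before 1 annotated start of the gene, on the gene's strand, which is the minus strand in all 6 cases. Some of these genes have other annotated starts, and only the longest stretch of each window that lies in no GENCODE 29 exon is printed, 5′ to 3′. The windows of SLC38A1, SLC43A2 and SLC7A8 lie inside the GENCODE 29 span of the gene, before an inner start. Bases just after the start were found in a GENCODE 29 transcript of the gene for 21 of the 25 members, but not for SLC38A1. Which start these cells used was not tested. Of the genes that rose, the stretches are chr1:44031468-44031712 for SLC6A9, chr11:57515787-57515952 for SLC43A1, chr12:46372868-46373023 for SLC38A2 and chr12:46266517-46266766 for SLC38A1. Of those that fell, they are chr17:1605086-1605192 for SLC43A2 and chr14:23155459-23155570 for SLC7A8. Capitals mark letters found for any of 3 motifs, searched on both strands. These were TGATGNAA, the core of the composite element bound by ATF4 with C/EBP factors, and the E-box CACGTG. The remaining motif was TGANNNNGC, a loose form of the core of the antioxidant response element bound by NRF2.
SLC6A9: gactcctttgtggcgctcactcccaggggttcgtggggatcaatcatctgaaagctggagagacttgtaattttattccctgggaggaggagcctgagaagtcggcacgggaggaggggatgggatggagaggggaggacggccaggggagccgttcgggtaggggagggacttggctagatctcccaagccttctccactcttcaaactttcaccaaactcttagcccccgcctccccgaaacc
SLC43A1: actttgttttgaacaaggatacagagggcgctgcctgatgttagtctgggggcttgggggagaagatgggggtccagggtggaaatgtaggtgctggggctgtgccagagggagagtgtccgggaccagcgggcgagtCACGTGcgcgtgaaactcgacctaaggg
SLC38A2: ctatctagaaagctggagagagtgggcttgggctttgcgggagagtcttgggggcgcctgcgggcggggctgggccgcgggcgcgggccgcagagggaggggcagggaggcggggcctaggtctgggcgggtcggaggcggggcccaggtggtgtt
SLC38A1: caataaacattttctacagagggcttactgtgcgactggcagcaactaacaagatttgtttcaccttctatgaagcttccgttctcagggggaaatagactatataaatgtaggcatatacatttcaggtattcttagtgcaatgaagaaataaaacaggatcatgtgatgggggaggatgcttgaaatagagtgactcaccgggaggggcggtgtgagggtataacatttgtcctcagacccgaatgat
SLC43A2: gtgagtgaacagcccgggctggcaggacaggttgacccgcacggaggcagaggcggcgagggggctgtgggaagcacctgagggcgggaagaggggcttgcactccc
SLC7A8: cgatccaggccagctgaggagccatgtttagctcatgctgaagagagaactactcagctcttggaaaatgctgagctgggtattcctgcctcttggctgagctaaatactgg
TGATGNAA was in none of these 6 windows. SLC43A1 held an E-box from 112 to 107 bases before its start, and the other windows shown held none. SLC43A2 and SLC7A8 each held 1 match to TGANNNNGC, TGAGGCTGC from 176 to 168 and TGATTCAGC from 134 to 126 bases before the start, both in exons of other transcripts and so outside the printed stretches.

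Over the members in the table, TGATGNAA was in 0 of 10 windows of members that rose and 0 of 8 of those that fell, against 3.14% of all 35116 promoter windows of this length and 1.77% of those of tested genes. A motif this rare is seldom met in so few windows, so these counts cannot show a difference. The called members without a window were SLC7A11, SLC3A1, SLC6A6 and SLC43A3. The only match to TGATGNAA was before SLC1A3, which was nearly silent here. TGANNNNGC, a loose pattern, was in 3 of 10 windows of members that rose and 6 of 8 of those that fell, against 35.2% of all windows and 35.6% of those of tested genes. The 6 include SLC7A8, which passed the filter only through the control libraries. They also include SLC38A9 and SLC16A10, whose calls were lost under several alternatives. No test was run on these shares. CACGTG was in the windows of SLC43A1, SLC38A5 and SLC7A5, against 6.34% of all windows and 8.08% of those of tested genes, and these genes were 1 rise, 1 fall and 1 without a call. No matches to different motifs overlapped in the 6 windows shown. These matches describe letters and not binding.

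The genes changed at least 2-fold lie on several chromosomes (GENCODE 29, GRCh38). Those that rose are SLC6A9 (ENSG00000196517, chr1:43991500-44031467), SLC3A1 (ENSG00000138079, chr2:44275458-44321494), SLC7A11 (ENSG00000151012, chr4:138164097-138242349), SLC43A1 (ENSG00000149150, chr11:57484534-57515786) and SLC38A2 (ENSG00000134294, chr12:46358189-46372867). Those that fell are SLC6A6 (ENSG00000131389, chr3:14402576-14489349), SLC43A2 (ENSG00000167703, chr17:1569267-1628886), SLC7A8 (ENSG00000092068, chr14:23125295-23183674), SLC25A22 (ENSG00000177542, chr11:790475-798333), SLC38A5 (ENSG00000017483, chrX:48458537-48470256), SLC43A3 (ENSG00000134802, chr11:57406954-57427580) and SLC7A6 (ENSG00000103064, chr16:68264516-68301823). SLC43A1 and SLC43A3 are thus on the same chromosome, and moved in opposite directions.

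The SLC1 family holds sodium-coupled carriers of glutamate and of small neutral amino acids, and in these cells its detected members were the neutral exchangers. SLC1A5 (ASCT2), a glutamine transporter, had 489.6 and 487 CPM in the control libraries and 794 and 840.3 CPM in the CELF2 ASO libraries. The groups were well apart, and the gene rose 1.67-fold (edgeR adjusted p = 0.000126). SLC1A4 (ASCT1), a carrier of alanine, serine and cysteine, had 382 and 389 CPM in the control and 461 and 504 CPM in the CELF2 ASO libraries. It rose by a log2 fold change of 0.33 (standard error 0.08, edgeR adjusted p = 0.00829), and this call did not hold without control_LNA_ASO replicate 1 (0.189) or replicate 2 (0.155). The glutamate carriers SLC1A1, SLC1A2 and SLC1A3 had 3, 8 and 3 counts over the 4 libraries and were not tested.

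SLC3A2, the heavy chain that partners the SLC7 light chains, rose 1.70-fold. Its level was 372 and 373 CPM in the control libraries and 639 and 627 CPM in the CELF2 ASO libraries, so that each pair lay close together and the pairs far apart (log2 fold change 0.77, standard error 0.07, edgeR adjusted p = 9.04e-05). SLC3A1 (rBAT), the heavy chain of the kidney and gut cystine carrier, had 4 and 0 counts in the control and 12 and 10 counts in the CELF2 ASO libraries. It passed the filter only through the CELF2 ASO libraries, and was called higher at this near-silent level (log2 fold change 2.39, standard error 0.76, edgeR adjusted p = 0.029), and the call was lost with DESeq2 (adjusted p = 0.106), with no filter (0.0683) and without control_LNA_ASO replicate 2 (0.137). Its fitted log2 fold change was 1.52 without control_LNA_ASO replicate 2 and 6.42 without replicate 1, where the remaining control library has 0 counts, and without CELF2_LNA_ASO replicate 1 it was not tested. SLC3A1 shares 1923 exon bases with PREPL on the opposite strand. PREPL had 1171 and 941 counts in the control and 1863 and 1718 counts in the CELF2 ASO libraries, the same direction as SLC3A1. As the strand setting is not stated, reads of SLC3A1 and PREPL cannot be told apart in the shared bases.

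The light chains that pair with SLC3A2 did not move together, with 1 rise, 2 falls and 2 members not called. SLC7A11 (xCT), which imports cystine in exchange for glutamate and so feeds glutathione synthesis, rose 4.92-fold. It had 14.0 and 14.5 CPM in the control and 69.1 and 70.9 CPM in the CELF2 ASO libraries, with both pairs tight and no overlap (log2 fold change 2.30, standard error 0.09, edgeR adjusted p = 5.65e-06). The antisense gene SLC7A11-AS1, which shares 865 exon bases with it, went the same way with 18 and 9 counts in the control and 102 and 56 counts in the treated libraries (log2 fold change 2.53, standard error 0.36, edgeR adjusted p = 0.000873). SLC7A5 (LAT1), the main importer of leucine and other large neutral amino acids, stood at 1132 and 1176 CPM in the control and 1146 and 964 CPM in the CELF2 ASO libraries. The groups overlapped and the change was not called (log2 fold change -0.13, standard error 0.09, edgeR adjusted p = 0.28), although without CELF2_LNA_ASO replicate 1, a fit whose spread comes from the control pair alone, it was called lower (log2 fold change -0.25, adjusted p = 1.88e-08).

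SLC7A6 (y+LAT2), an exchanger of cationic for neutral amino acids, had 61.8 and 57.8 CPM in the control and 32.2 and 27.2 CPM in the CELF2 ASO libraries, a 2.01-fold fall (log2 fold change -1.01, standard error 0.10, edgeR adjusted p = 0.000183). It shares 3371 exon bases with SLC7A6OS on the opposite strand, which had 342 and 331 counts in the control and 228 and 171 counts in the treated libraries, and reads of the 2 genes cannot be told apart where the strand setting is not stated. SLC7A8 (LAT2), another carrier of neutral amino acids, was sparse and passed the filter only through the control libraries, with 1.07 and 1.66 CPM in the control and 0.397 and 0.335 CPM in the CELF2 ASO libraries, and fell 3.63-fold (log2 fold change -1.86, standard error 0.38, edgeR adjusted p = 0.00462). SLC7A7 (y+LAT1) had 8.04 and 7.37 CPM in the control and 7.61 and 6.65 CPM in the CELF2 ASO libraries. Its groups overlapped, and its log2 fold change was -0.11 (standard error 0.14, edgeR adjusted p = 0.539).

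Levels of different genes were compared as CPM per kilobase of exon. On that scale the control libraries had SLC7A5 to SLC3A2 ratios of 3.33 and 3.44, and the CELF2 ASO libraries 1.96 and 1.68. The summed level of all 5 light chains over that of SLC3A2 went the same way, from 3.48 and 3.59 to 2.06 and 1.78. SLC7A11 made up little of the light chain RNA in any library. Its ratio to SLC3A2 was 0.0202 and 0.0209 in the control and 0.0580 and 0.0606 in the CELF2 ASO libraries. These are ratios of RNA, given as a description with no test.

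**Figure D3:**
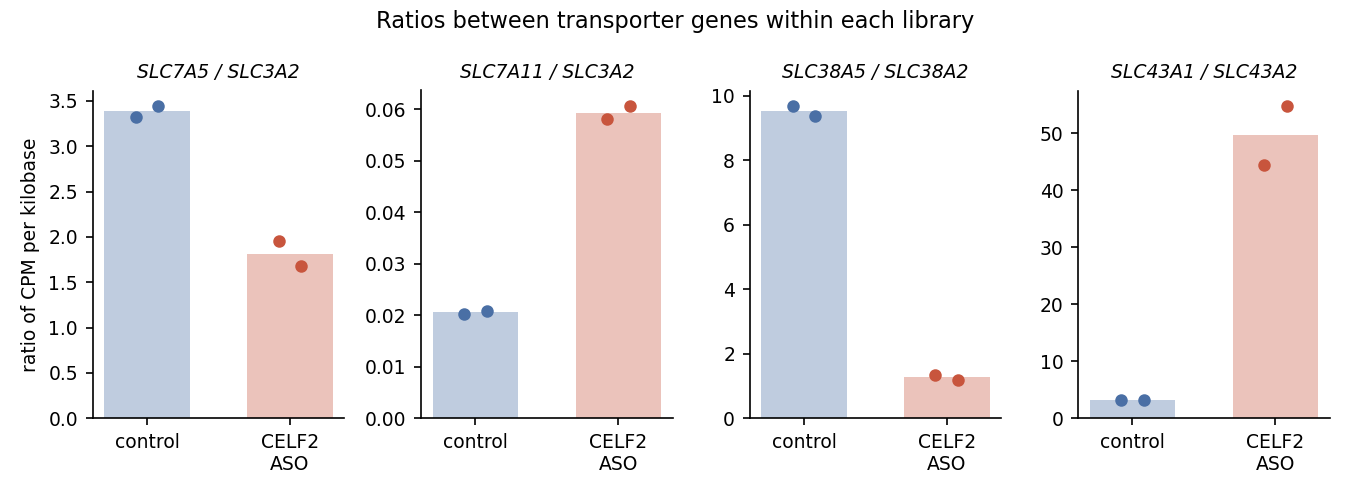
Ratio of the level per length (CPM per kilobase of exon) of a pair of transporter genes in each library (points) with the group mean (bars), for control and CELF2 ASO libraries, each panel with its own axis from 0. SLC7A5 over SLC3A2 goes from 3.33 and 3.44 to 1.96 and 1.68, and SLC43A1 over SLC43A2 from 3.20 and 3.17 to 44.5 and 54.8.

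Of the cationic amino acid transporters, SLC7A1 (CAT1), the main carrier of arginine and lysine in many cells, was the only one with more than a few counts. It had 371.7 and 371.5 CPM in the control and 612 and 623 CPM in the CELF2 ASO libraries. It rose 1.66-fold, with groups far apart against the spread within each (edgeR adjusted p = 0.000111). SLC7A2 and SLC7A3 had 7 and 2 counts over the 4 libraries and were not tested.

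The SLC6 carriers, which couple transport to sodium and chloride, held 1 rise, 1 fall and 1 member not called. SLC6A9 (GlyT1), a glycine importer, had 56.9 and 56.6 CPM in the control and 331 and 333 CPM in the CELF2 ASO libraries. The libraries of each group nearly coincided, and the log2 fold change was 2.55 (standard error 0.07, edgeR adjusted p = 3.24e-06). SLC6A9 shares 404 exon bases with CCDC24 on the opposite strand, which had 43 and 67 counts in the control and 189 and 136 counts in the treated libraries. SLC6A6 (TauT), which carries taurine, went from 181 and 191 CPM in the control to 44.5 and 30.3 CPM in the CELF2 ASO libraries. That was a 4.97-fold fall (log2 fold change -2.31, standard error 0.18, edgeR adjusted p = 0.000129), and its CELF2 ASO libraries differed from each other more than its control libraries did. SLC6A15 (B0AT2), a carrier of branched-chain amino acids and proline, had 0.5002 and 0.554 CPM in the control and 1.08 and 0.711 CPM in the CELF2 ASO libraries. It was not called (log2 fold change 0.78, standard error 0.35, edgeR adjusted p = 0.096) except without CELF2_LNA_ASO replicate 2 (adjusted p = 0.0372).

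The SLC38 family divided into 3 rises, 3 falls and 1 member not called. SLC38A2 (SNAT2), the sodium-coupled importer of small neutral amino acids that responds to amino acid supply, rose 2.99-fold. It had 205 and 212 CPM in the control and 602 and 643 CPM in the CELF2 ASO libraries (log2 fold change 1.58, standard error 0.07, edgeR adjusted p = 9.42e-06). SLC38A1 (SNAT1), a close relative and neighbour on chromosome 12, had 481 and 471 CPM in the control and 869.7 and 922 CPM in the CELF2 ASO libraries, a 1.88-fold rise (edgeR adjusted p = 5.52e-05). SLC38A5 (SNAT5), which can also run as an exporter of glutamine, had 1204 and 1209 CPM in the control and 495 and 465 CPM in the CELF2 ASO libraries. It fell 2.51-fold (log2 fold change -1.33, standard error 0.07, edgeR adjusted p = 1.47e-05), and its groups lay far apart. Per length, SLC38A5 stood at 9.68 and 9.39 times SLC38A2 with the control ASO and at 1.35 and 1.19 times with the CELF2 ASO.

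Among the other SLC38 members, SLC38A7, a glutamine carrier of the lysosome, had 64.1 and 64.3 CPM in the control and 31.3 and 34.4 CPM in the CELF2 ASO libraries and fell 1.96-fold (edgeR adjusted p = 8.86e-05). SLC38A9, the lysosomal arginine sensor of the mTORC1 pathway, had 29.4 and 27.9 CPM in the control and 22.2 and 22.9 CPM in the CELF2 ASO libraries. Its fall, a log2 fold change of -0.35 (standard error 0.09, edgeR adjusted p = 0.0153), was lost when library totals alone set the scale (adjusted p = 0.0691) and without control_LNA_ASO replicate 1 (0.16) or replicate 2 (0.088). SLC38A10 rose 1.62-fold, from 146 and 156 CPM to 257 and 234 CPM (edgeR adjusted p = 0.000315). SLC38A6 had 2.79 and 2.39 CPM in the control and 2.34 and 4.10 CPM in the CELF2 ASO libraries, which overlap. Its log2 fold change of 0.30 (standard error 0.29, edgeR adjusted p = 0.409) was 0.66 without CELF2_LNA_ASO replicate 1 (adjusted p = 0.00809) and -0.17 without replicate 2 (adjusted p = 0.582), so its direction rested on 1 library.

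The facilitative carriers, which need no ion gradient, also moved apart. SLC43A1 (LAT3), a carrier of branched-chain amino acids and phenylalanine, had 56.8 and 55.0 CPM in the control and 182 and 181 CPM in the CELF2 ASO libraries, a 3.24-fold rise (log2 fold change 1.70, standard error 0.07, edgeR adjusted p = 8.12e-06). Its paralog SLC43A2 (LAT4), with similar substrates, had 53.3 and 52.0 CPM in the control and 12.3 and 9.92 CPM in the CELF2 ASO libraries, a 4.74-fold fall (log2 fold change -2.25, standard error 0.12, edgeR adjusted p = 1.36e-05). The groups did not overlap for either gene, and the ratio of the genes per length went from 3.20 and 3.17 to 44.5 and 54.8. SLC43A3, a family member better known as a carrier of purine nucleobases, had 393.9 and 393.0 CPM in the control and 173 and 152 CPM in the CELF2 ASO libraries. It fell 2.42-fold (log2 fold change -1.27, standard error 0.09, edgeR adjusted p = 2.86e-05). SLC16A10 (TAT1), a carrier of aromatic amino acids, had 43.0 and 38.1 CPM in the control and 29.5 and 17.5 CPM in the CELF2 ASO libraries. Its fall was close to the threshold (log2 fold change -0.79, standard error 0.25, edgeR adjusted p = 0.0471) and was lost with library totals alone (adjusted p = 0.0852), with no filter (0.0805), with the 1 CPM filter (0.0527) and without control_LNA_ASO replicate 1 (0.146) or replicate 2 (0.0685).

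The remaining carriers act at internal membranes or are coupled to protons. SLC25A22, which brings glutamate into mitochondria, had 53.6 and 64.5 CPM in the control and 22.8 and 16.7 CPM in the CELF2 ASO libraries and fell 2.98-fold (log2 fold change -1.57, standard error 0.16, edgeR adjusted p = 0.000197). CTNS, which lets cystine out of the lysosome, had 50.8 and 54.6 CPM in the control and 67.5 and 61.5 CPM in the CELF2 ASO libraries. Its small rise (log2 fold change 0.29, standard error 0.09, edgeR adjusted p = 0.0238) was lost with DESeq2 (adjusted p = 0.0864), with no filter (0.0966) and without control_LNA_ASO replicate 1 (0.333) or replicate 2 (0.15). The proton-coupled SLC36A1 (PAT1), found on lysosomes, had 18.7 and 18.5 CPM in the control and 13.8 and 16.1 CPM in the CELF2 ASO libraries. It missed the threshold (log2 fold change -0.32, standard error 0.12, edgeR adjusted p = 0.0501) and passed it with RLE scaling (adjusted p = 0.0392), no filter (0.0419), limma-voom (0.0474) and without CELF2_LNA_ASO replicate 2 (0.000105). SLC36A4 (PAT4) had 2.39 and 2.47 CPM in the control and 2.88 and 2.89 CPM in the CELF2 ASO libraries and was not called (edgeR adjusted p = 0.291).

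The order of the transporters by level per length differed between the groups. In both control libraries SLC38A5 was first, with a mean of 301 ± 0.858 CPM per kilobase (SD, n = 2), followed by SLC7A5 at 243 ± 6.45 and SLC1A5 at 147 ± 0.480. In the CELF2 ASO libraries SLC1A5 had 245 ± 9.72 and SLC7A5 had 222 ± 27.2 CPM per kilobase (SD, n = 2), and these 2 did not differ beyond their spread, since each was first in 1 library. SLC3A2 at 122 ± 1.63 and SLC38A5 at 120 ± 5.18 came next and lay within their spread. SLC6A9 moved from rank 15 to rank 9 of 28, SLC7A11 from 23 to 14, and SLC43A3 from 4 to 11. The 5 highest genes held 73.0% and 72.9% of the summed level per length with the control ASO, and 63.2% and 62.4% with the CELF2 ASO. The summed level per length was 1158 and 1173 in the control and 1295 and 1266 CPM per kilobase in the CELF2 ASO libraries.

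**Figure D4:**
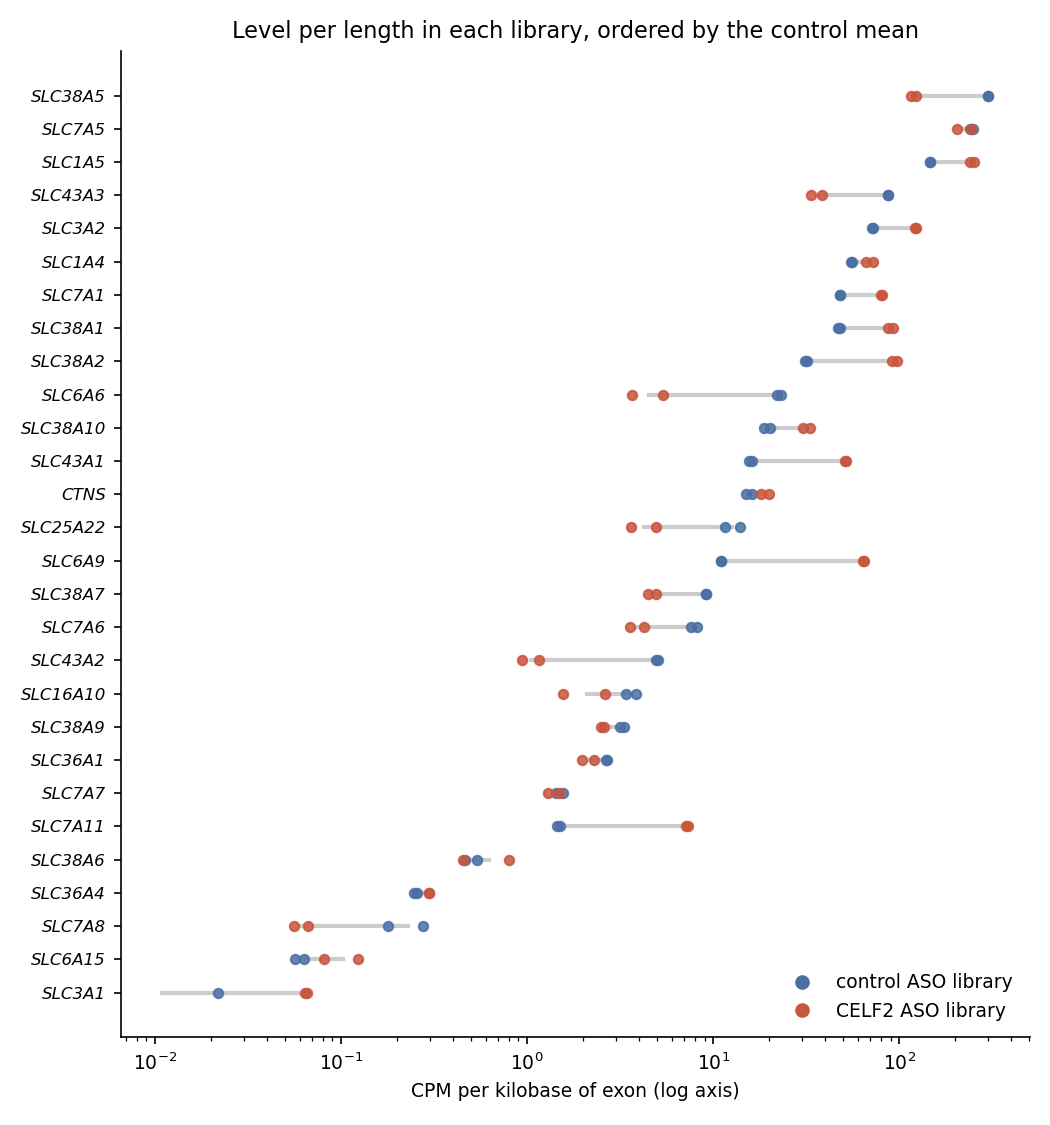
Level of each tested transporter gene in each library as CPM per kilobase of exon (x axis, log scale), ordered by the control mean, with grey bars joining the group means. SLC38A5 is first in the control libraries at 301 and at rank 4 in the CELF2 ASO libraries at 120, and the control library of SLC3A1 with 0 counts is not drawn.

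A second list held 40 further carriers of amino acids or small peptides, many of them too low to test here. Of these, 19 were tested, 4 rose (21.1%) and 8 fell (42.1%), beside 28.0% and 35.4% of protein-coding genes. The median log2 fold change of the 19 was -0.15, beside 0.04 over all genes. The glycine carrier SLC6A5, at 31 and 20 counts in the control and 6 and 1 counts in the CELF2 ASO libraries, fell 7.09-fold (edgeR adjusted p = 0.00311). The peptide carriers SLC15A1 and SLC15A2 moved apart at low levels, 3.98-fold lower (edgeR adjusted p = 0.000937) and 3.60-fold higher (edgeR adjusted p = 0.0018). SLC38A4 rose 2.87-fold from 8 and 5 counts in the control to 24 and 14 (edgeR adjusted p = 0.0177), a call lost with DESeq2 (0.122), without either control library (0.0611 and 0.0948) and without CELF2_LNA_ASO replicate 1 (0.1). SLC6A5 passed the filter only through the control libraries, and SLC15A2 and SLC38A4 only through the CELF2 ASO libraries. Of the 15 genes that reached the minimum in both groups, 2 rose and 7 fell.

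The transporters were read beside lists of genes that respond to or use amino acids. These lists were chosen with earlier results of these data known, so their shares are a description and not a test. Of 15 regulators and targets of the amino acid response, 13 rose (86.7%) and 2 fell (13.3%), beside 28.0% and 35.4% of protein-coding genes. The list's median log2 fold change was 2.43, and its counts were the same under every alternative run. The falls were ATF5 and EIF2S1. DDIT3 (CHOP) rose 25.5-fold, the glutathione-degrading enzyme gene CHAC1 11.2-fold, ATF3 10.5-fold and SESN2 8.44-fold, each beyond the threshold (edgeR adjusted p from 2.68e-06 to 1.03e-05). Of 10 tested genes of the NRF2 pathway, which is known to drive SLC7A11, 1 rose and 8 fell, with a median of -0.60. HMOX1 fell 16.7-fold and NQO1 3.66-fold, and KEAP1, whose product restrains NRF2, fell 1.67-fold (edgeR adjusted p from 5.48e-06 to 0.000212). The list mixes regulators with targets, so its counts are no measure of NRF2 activity. The factor gene itself, NFE2L2, rose 1.27-fold (edgeR adjusted p = 0.0351), a call lost with DESeq2 (0.0616), with no filter (0.109) and without control_LNA_ASO replicate 1 (0.19) or replicate 2 (0.167). Whether NRF2 had a part in the rise of SLC7A11 was not tested.

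Of 11 enzymes that use glutamine, cysteine or glutathione, 5 rose (45.5%) and 2 fell (18.2%), with a median of -0.01. Among protein-coding genes 28.0% rose and 35.4% fell. CTH, which makes cysteine by transsulfuration, rose 7.71-fold, GPT2, a mitochondrial alanine aminotransferase, rose 2.75-fold, and GOT2, a mitochondrial aspartate aminotransferase, fell 2.91-fold (edgeR adjusted p from 7.34e-06 to 1.68e-05). The other fall was the glutathione synthase gene GSS. Falls numbered 5 without CELF2_LNA_ASO replicate 1 and 4 without replicate 2. Of 22 tested genes that sense amino acids for mTORC1 at the lysosome, 7 rose and 8 fell, with a median of -0.06, and the rises numbered 2 without control_LNA_ASO replicate 1 and 3 without replicate 2. These counts were 31.8% and 36.4% of the list, beside 28.0% and 35.4% of protein-coding genes. The largest changes there were CASTOR2, 3.95-fold lower (edgeR adjusted p = 0.000442), and RRAGC, a Rag GTPase, 2.41-fold higher (edgeR adjusted p = 0.00395).

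**Figure D5:**
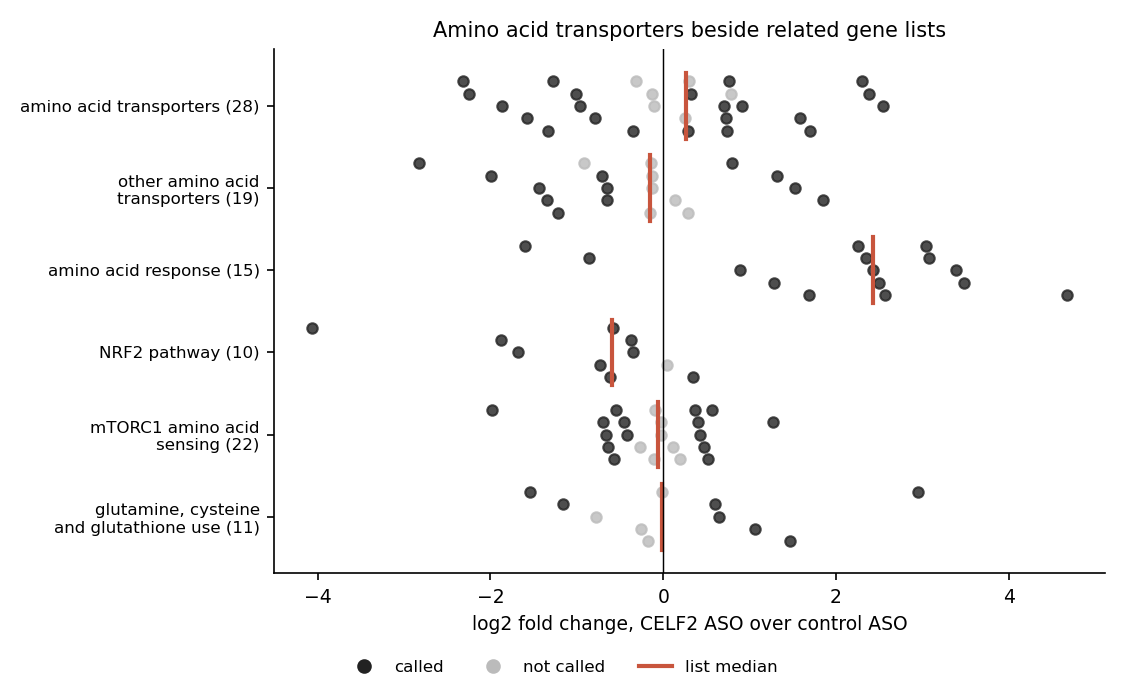
Log2 fold change (x axis) of the tested genes of the amino acid transporters and of 5 related lists, each point a gene, dark where called by edgeR, with the list median as a red line and the number tested in brackets. The transporters spread to both sides with a median of 0.27, while the amino acid response list has a median of 2.43 and the NRF2 list one of -0.60.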

How the data were processed

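The deposited table held raw whole-number counts of reads per gene. The submitters' processing notes name featureCounts 2.0.8 and STAR 2.7.11b, with GRCh38 as the build, and also bcl2fastq, Subread and Salmon 1.10.0. For the strand setting, the annotation release and reads shared between genes, nothing was given in the sources used here. The labels' protocols name both poly(A) selection and removal of ribosomal RNA, which leaves the library type unsettled. Another 97 rows of spike-in or reporter sequence, with 1 to 3 counts per library, were left out.

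The analysis ran in R 4.3.3 and used edgeR 4.0.16: filterByExpr (minimum count 10, minimum total 15), TMM scaling and its quasi-likelihood test, two-sided and with robust dispersions, on all 4 libraries with no covariate, adjusted over all tested genes at 0.05. Standard errors are the absolute log2 fold change over the square root of F. Levels per length divide CPM by the exon union of GENCODE 29 (GRCh38). Symbols were found for 61481 IDs. A call means an adjusted p under the threshold. Alternatives were RLE scaling, library totals alone, no filter, 1 CPM in at least 2 libraries, DESeq2 1.42.0, limma-voom (limma 3.58.1), the label's number as a block, and leaving out each library. A chi-square test of counts within each pair gave a statistic per degree of freedom of 3.38 (control) and 18.5 (CELF2 ASO), more than sampling noise.

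The members and lists were chosen with earlier results of these data known. All members are named, those changed at least 2-fold or with a call that depends on an alternative with their values in every library. From each related list, the counts and up to 4 called members of largest change are named. A single such gene is not reported here. NFE2L2, GSS, ATF5, EIF2S1, overlapping genes and single marker genes were named after their values were seen. Promoters were printed for the 4 largest called rises and 2 largest called falls with an entry in the table, less any bases in a GENCODE 29 exon.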

Additional observations from a re-analysis of the deposited data

How the results depend on the processing

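Of 305 values computed for single transporters under the alternatives, 279 kept their direction and side of the threshold, and 18 of the 28 members did so under every alternative run. The exceptions that lost or gained a call stand beside their genes. SLC38A6 gained one without CELF2_LNA_ASO replicate 1 (log2 fold change 0.66). SLC7A7, which was not called, changed sign with library totals alone (log2 fold change 0.01), and SLC38A6 without CELF2_LNA_ASO replicate 2 (log2 fold change -0.17). The number of members called higher was 9 to 13 and lower 8 to 11 when a library was left out, and 10 to 12 and 8 to 11 otherwise. The median log2 fold change of the members was 0.39 with library totals alone and 0.12 with the 1 CPM filter, which tests 26 members, and 0.10 to 0.23 when a library was left out. Library totals alone moved the median of all genes by 0.12. Genes called over the whole table ranged from 7719 to 12313 when a library was left out and were 8725 with DESeq2. In a fit without a control library the spread comes from the CELF2 ASO pair alone, and in a fit without a CELF2 ASO library from the control pair alone. With the label's number as a replicate block, 12 members were called higher and 10 lower, and no member's call changed. The correlation across genes of the within-pair differences was 0.05, so the numbers do not show a pairing. Members with few counts, such as SLC3A1, SLC7A8 and SLC6A15, are limited by depth, and the 5 untested members had 2 to 8 counts in all.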
